A study of Mus musculus with 4 samples.

Results

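The 6 genes followed here belong to the lymphocyte egress and trafficking machinery: S1pr1, S1pr2 and S1pr4, which encode receptors for sphingosine 1-phosphate (S1P), Selplg, which encodes the selectin ligand PSGL-1, Cd69, which encodes an activation antigen, and Gpr183, which encodes the oxysterol receptor EBI2. They were taken by symbol, and all 6 were found among the 55536 genes of the deposited annotation, of which 22015 were nuclear protein-coding genes. No selectin gene is among the 6, so they are called S1P receptor, selectin ligand and egress genes here. The data are polyA-selected RNA sequencing of mouse regulatory T cells (Treg) that the labels call inflammation-experienced. All 4 libraries form 1 group and are technical replicates of 1 biological replicate, a male adult of 6 months. The strain is given as Foxp3CreERT2 x Rosa26YFP, a cross in which a tamoxifen-dependent Cre is expressed from the Foxp3 locus, the gene of the Treg lineage factor, and can switch on a YFP reporter at Rosa26. The labels name bone marrow hematopoietic cells as the origin of the primary cells. How inflammation was set off, whether tamoxifen was used and which gate sorted the cells are not stated in the labels.

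S1P is abundant in blood and lymph and scarce inside lymphoid tissue, and T cells follow this gradient out of the tissue through S1PR1, which couples to inhibitory G proteins. CD69 binds S1PR1 in the same cell and takes it off the surface, so that newly activated cells stay. S1PR2 couples to G12/13 proteins and opposes migration, PSGL-1 carries the sugars that selectins bind, and EBI2 guides cells toward oxysterols made by stromal cells.

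The libraries held 9284432, 9341328, 9325636 and 6648385 expected counts (libraries 1 to 4, numbered as in the labels), so library 4 is the shallowest. With 1 biological replicate, every SD and test below describes the spread between libraries of the same material and says nothing about variation between animals. All 10 Treg markers and all 5 T cell markers were detected, with Foxp3 itself at 20.3 to 36.4 TPM (reads per transcript length, scaled to the same total in each library). Signal of other cells was present too: the summed TPM of 7 B cell markers ran from 93.2 to 197, that of 9 monocyte, macrophage and granulocyte markers from 5.64 to 34.8, and that of 6 erythroid markers from 4.60 to 1067, with the highest value of each in library 1. The 2 CD8 T cell markers summed to 10.1 to 17.3 TPM, the 5 natural killer cell markers to 1.23 to 4.86 and the 6 dendritic cell markers to 2.21 to 5.47. Endothelial markers were nearly absent from the main table, at 0 to 0.08 TPM over 6 genes, with Cdh5, Tie1 and Vwf at 0 in every library. A second transcript table, with its own estimates, listed Tie1 at 0.115 to 0.499 TPM and Vwf at 0.246 to 0.447 TPM. In such bulk libraries fewer cells of a type and less RNA per cell cannot be told apart.

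All but S1pr2 averaged 48.5 to 395 TPM, and S1pr2 averaged 3.60 TPM. Selplg was the highest, ahead of Cd69, S1pr1, Gpr183 and S1pr4 in that order. Among the 10552 nuclear protein-coding genes with a mean of at least 1 TPM, Selplg ranked 280, Cd69 628, S1pr1 843, Gpr183 1225, S1pr4 2640 and S1pr2 8916. Neighbours in the order were compared within each library as log2((TPM + 0.1)/(TPM + 0.1)). Selplg exceeded Cd69 by 1.08 ± 0.39 (SD, n = 4 libraries), Gpr183 exceeded S1pr4 by 1.09 ± 0.30, and S1pr4 exceeded S1pr2 by 3.73 ± 0.37, each in 4 of 4 libraries. The other neighbours were closer. Cd69 over S1pr1 averaged 0.36 ± 0.48 and had the opposite sign in library 1, at -0.25, while S1pr1 over Gpr183 averaged 0.51 ± 0.34 and was only 0.06 in library 3. Neither of these mean ratios exceeded 2 SD. Both of these orders also turned with the quantification. Cd69 over S1pr1 was -0.29 from the length-scaled counts of the older GENCODE M4 gene table and -0.19 with no length scaling. S1pr1 over Gpr183 was -0.15 from the M4 counts. By protein-coding transcripts alone Cd69 over S1pr1 was 0.09 ± 0.44, with Cd69 higher in 2 libraries and lower in 2. Cd69 over Gpr183, at 0.86 ± 0.21 in the main table, was -0.44 ± 0.22 from the M4 counts and negative in all 4 libraries. By these scaled M4 values Cd69 thus averaged below both S1pr1 and Gpr183. The lengths used to scale the M4 counts were mean effective lengths per gene from the main table, not from M4. For Cd69 that was 1981 bases, whereas its main coding transcript Cd69-201 has 1687 bases. Whether the M4 order holds with other lengths was not tested. Of all 15 pairs, 14 kept 1 sign in 4 libraries and 13, with Cd69 over Gpr183 among them, had a mean ratio over 2 SD. The exact two-sided sign-flip permutation test cannot go below p = 0.125 with 4 libraries, so no pair could pass, and the adjusted p-values over the 15 pairs were 0.134 to 0.375.

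**Figure D1:**
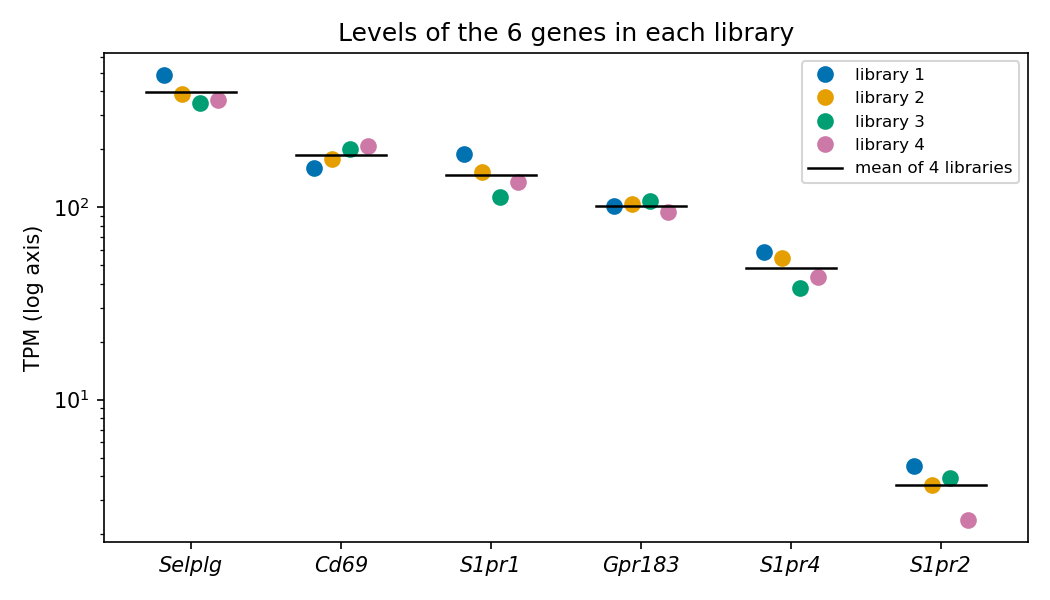
TPM of the 6 genes (log axis) in each of the 4 libraries (coloured points), with the mean of the libraries as a black line. Selplg is highest in every library, S1pr2 lies at 2.38 to 4.52 TPM, and the ranges of Cd69 and S1pr1 overlap.

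S1pr1, the receptor for exit into blood and lymph, was measured at 189, 152, 113 and 135 TPM in libraries 1 to 4, a mean of 147 ± 32.4 (SD, n = 4). Library 1 was high and library 3 low. The gene (ENSMUSG00000045092.8) lies on the minus strand at chr3:115710433-115715072 of mm10, has 1 annotated transcript of 2 exons, S1pr1-201, and drew 2099 to 3849 expected counts a library. S1pr4, a receptor found mainly on blood cells, was measured at 58.2, 54.2, 38.1 and 43.6 TPM, a mean of 48.5 ± 9.29. By TPM it too was highest in library 1 and lowest in library 3. S1pr4 (ENSMUSG00000044199.6, chr10:81497747-81500132, minus strand) also has 1 annotated transcript, of 1 exon, and drew 523 to 945 expected counts. The log2 ratio of S1pr1 over S1pr4 had the smallest spread of the 15 pairs, 1.59 ± 0.09.

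S1pr2, the receptor that opposes migration, was measured at 4.52, 3.59, 3.90 and 2.38 TPM, a mean of 3.60 ± 0.90, from 77 to 146 expected counts. By this measure its lowest value came from library 4, the shallowest. The gene (ENSMUSG00000043895.6) lies at chr9:20962361-20976781 on the minus strand, and its main coding transcript S1pr2-201 took 71.2 ± 17.4% of its TPM but 95.4 ± 3.63% of its expected counts. The gap lay in short or partial models with few reads, such as S1pr2-204, which had up to 2 expected counts and 0 to 1.06 TPM. By protein-coding transcripts alone S1pr2 stood at 2.49 ± 0.55 TPM, with library 2 lowest, at 1.88 against 2.25 in library 4.

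Of the summed TPM of the 5 S1P receptor genes, 200 ± 42.1, S1pr1 held 73.6 ± 1.23%, S1pr4 24.4 ± 1.16% and S1pr2 1.83 ± 0.50%. The S1pr1 and S1pr4 shares varied little between libraries, with S1pr1 at 74.9, 72.4, 72.7 and 74.5% in libraries 1 to 4, whereas the S1pr2 share ran from 1.32 to 2.52%. S1pr3 and S1pr5, the receptors of vascular and other cells and of natural killer cells, were near the floor. S1pr3 was listed at 0.66, 0.15, 0.18 and 0.22 TPM, and S1pr5 at 0.18 TPM, from 3 expected counts, in library 1 and at 0 in the other 3.

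The sequences before the start sites are shown for the receptor genes of this set that the RefSeq promoter table (GRCm38.p6) held, since these genes share a family or a ligand-guided role but differ in level. They are S1pr4, Gpr183 and S1pr2, that is 3 of the 6 genes; S1pr1, Selplg and Cd69 had no entry. Each run gives the 150 bases before the RefSeq start on the gene's own strand, 5′ to 3′, with CACCC or its reverse complement GGGTG, the core that Kruppel-like factors bind, in capitals. The windows are chr10:81500138-81500287 for S1pr4, chr14:121965194-121965343 for Gpr183 and chr9:20976794-20976943 for S1pr2, all on the minus strand.
S1pr4: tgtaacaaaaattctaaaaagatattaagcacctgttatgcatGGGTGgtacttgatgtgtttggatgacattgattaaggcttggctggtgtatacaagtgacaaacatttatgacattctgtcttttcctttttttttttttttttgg
Gpr183: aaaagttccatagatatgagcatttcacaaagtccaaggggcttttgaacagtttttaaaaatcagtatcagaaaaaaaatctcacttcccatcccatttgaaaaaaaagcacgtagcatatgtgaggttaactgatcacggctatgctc
S1pr2: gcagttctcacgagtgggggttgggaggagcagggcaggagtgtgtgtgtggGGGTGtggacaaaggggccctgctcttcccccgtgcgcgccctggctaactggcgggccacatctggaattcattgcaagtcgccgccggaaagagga
The S1pr2 window had a GC content of 64% with 8 CpG, against a median of 54% and 4 CpG over 32851 RefSeq promoters. S1pr4 had 32% and 0 CpG, and Gpr183 36% and 2 CpG. Only 2.78% of all windows had a lower GC content than S1pr4 and 5.82% a lower one than Gpr183. CACCC occurred once in the S1pr2 window and once in that of S1pr4, on either strand, and in 37.4% of all promoters. GGCGG, searched on both strands, occurred 2 times in S1pr2 and in 40.3% of promoters, with no overlap with CACCC, and TATAAA in none of the 3 and in 7.57% of promoters. These matches describe letters only.

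Selplg, the backbone of the selectin ligand, was measured at 485, 387, 346 and 360 TPM, a mean of 395 ± 62.5 (SD, n = 4). By TPM library 1 stood above the other 3, which lay close together. The gene (ENSMUSG00000048163.13, chr5:113818536-113832644, minus strand) drew 2897 to 5439 expected counts. Selplg-201, the main coding transcript of 2 exons, took 75.9 ± 6.72% of the TPM and 84.1 ± 5.04% of the expected counts. A short coding model at the 3′ end, Selplg-205, took another 13.4 ± 3.91% of the TPM.

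Cd69, whose product retains cells by binding S1PR1, was measured at 159, 178, 200 and 208 TPM, a mean of 186 ± 22.1 (SD, n = 4), with library 1 lowest. The gene (ENSMUSG00000030156.5, chr6:129267325-129275436, minus strand) drew 2006 to 3392 expected counts. Its main coding transcript Cd69-201, of 5 exons, took 81.5 ± 6.17% of the TPM but 63.1 ± 10.7% of the expected counts. Most of the rest was assigned to Cd69-204, a model of 4968 bases annotated as retained intron, at chr6:129270402-129275369. It runs through the last 148 of the 215 bases of exon 1, the whole of intron 1 (3764 bases), exon 2 and 933 bases of intron 2. The paired runs below, read from the GENCODE M21 transcripts, show where both models part: the capitals are the last 40 bases of exon 1, all coding (chr6:129275222-129275261), and the lower-case part is exon 2 in Cd69-201 and the start of intron 1 in Cd69-204.
Cd69-201: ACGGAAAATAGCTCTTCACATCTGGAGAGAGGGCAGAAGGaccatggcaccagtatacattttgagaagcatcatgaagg
Cd69-204: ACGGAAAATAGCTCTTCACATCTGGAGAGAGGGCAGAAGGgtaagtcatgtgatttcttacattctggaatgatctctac

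Cd69-204 drew 621, 1169, 1656 and 508 expected counts in libraries 1 to 4, at 18.3, 31.0, 45.3 and 19.5 TPM. All retained-intron models together held 30.0% of the Cd69 expected counts in library 1 (95% Wilson interval 28.0 to 32.0%), 41.2% in library 2 (39.4 to 43.0%), 49.0% in library 3 (47.3 to 50.7%) and 25.7% in library 4 (23.8 to 27.6%), a mean of 36.5 ± 10.6%. Libraries 2 and 3 were high and libraries 1 and 4 low, and no intervals overlapped. The intervals cover counting error only, since reads from PCR-amplified libraries are not independent molecules. A chi-square test of homogeneity over the 4 libraries was run after the Cd69 values had been seen. It covered the 4378 genes averaging at least 10 expected counts in retained-intron models and at least 10 in their other models. For Cd69 this test gave a Benjamini-Hochberg adjusted p of 2.14e-77. In that test 60.6% of genes differed between libraries, so a difference as such was common. The mean share of Cd69 was above that of 83.4% of those genes, whose median was 14.1%, and its SD between libraries was above that of 93.7% of them. The SD rank was not adjusted for the mean share. Shares of counts also grow with model length, and Cd69-204 has 4968 bases against 1687 in Cd69-201. By TPM, Cd69-204 held 15.2 ± 5.98% of the gene.

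Retained-intron share was lower in Selplg, at 6.58, 11.5, 9.97 and 15.1% of its expected counts, a mean of 10.8 ± 3.54%. The model behind it, Selplg-202, covers 2190 bases of intron 1, whose full length is 10100 bases. Here library 4 was highest and library 1 lowest, an order unlike that of Cd69. Selplg also differed between libraries (adjusted p = 3.42e-33, same chi-square test), and its SD was above that of 55.2% of genes. In the second transcript table, which has its own estimates, the shares were 31.6, 41.8, 49.2 and 26.7% for Cd69 and 7.99, 13.5, 12.1 and 16.5% for Selplg, so both kept their order of libraries. The retained-intron model of S1pr2, with 1 to 8 expected counts a library, was under the minimum mean of 10 for this test, and S1pr1, S1pr4 and Gpr183 have no such model.

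**Figure D2:**
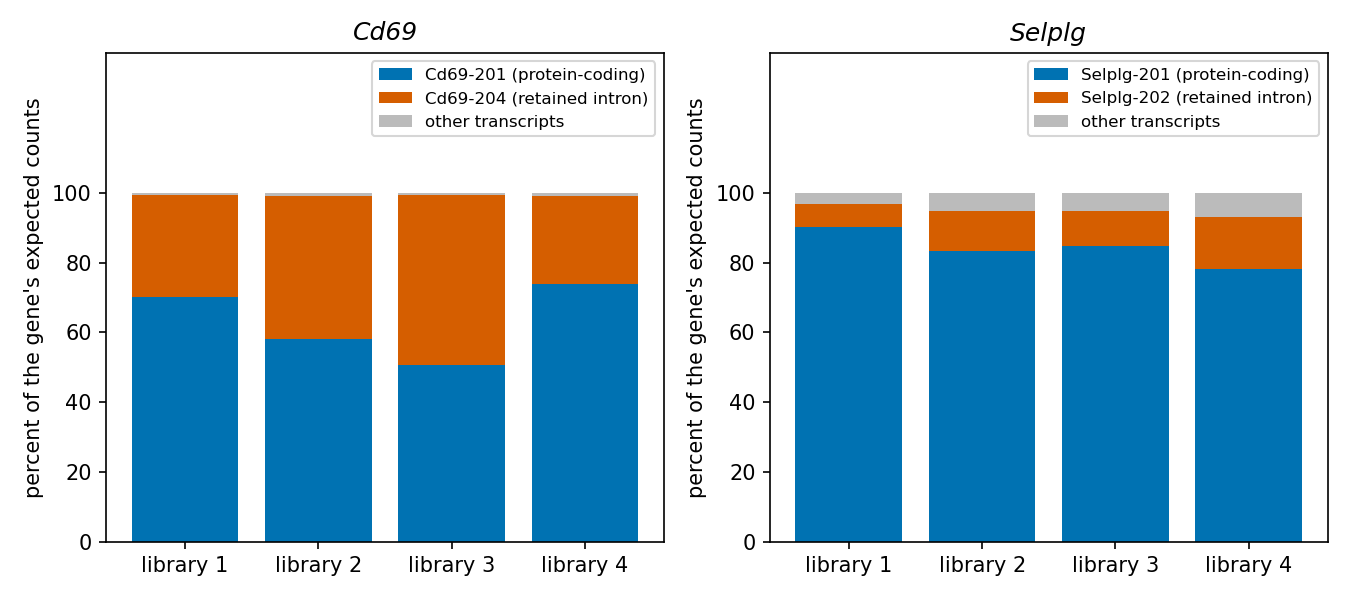
Percent of expected counts (vertical axis) of Cd69 (left) and Selplg (right) assigned to the main protein-coding transcript, to the leading retained-intron transcript and to all others, per library. For Cd69 the retained-intron part is widest in library 3, and for Selplg in library 4.

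Gpr183, whose product reads oxysterol gradients, had the steadiest level of the 6 genes, with 101, 104, 108 and 94.6 TPM and a mean of 102 ± 5.58 (SD, n = 4). No library stood apart. The gene (ENSMUSG00000051212.8, chr14:121952551-121965195, minus strand) drew 1281 to 2096 expected counts, and Gpr183-201, of 2 exons, took 99.1 ± 0.94% of its TPM. Gpr183 lies inside Ubac2, which runs along the opposite strand at chr14:121878620-122021034 and was measured at 63.8 ± 11.5 TPM. The strand setting of the counting is not stated, and without it reads of both genes over shared bases cannot be told apart. Ubac2 had another order of libraries, from 76.7 TPM in library 1 to 49.9 TPM in library 4.

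All 6 genes differed between the 4 libraries beyond Poisson counting noise, by a likelihood ratio test of rounded expected counts on TMM-scaled (trimmed mean of M values) library sizes with Benjamini-Hochberg adjustment over all genes tested. The same held for 68.4% of the 13045 genes tested, so a difference between libraries was the usual case. The highest library exceeded the lowest by a median of 1.49 times in normalized CPM (counts scaled by the TMM library size) over the 6 genes and by 1.499 times over all tested genes. Over the 8054 tested genes with a mean count at or above that of S1pr2, the lowest of the 6, that median was 1.38 times. S1pr1, with 425, 387, 253 and 305 normalized CPM, had a 1.68-fold range (adjusted p = 2.46e-105). S1pr4 ranged 1.61-fold (adjusted p = 2.99e-24), Cd69 1.495-fold (4.31e-49), Selplg 1.49-fold (4.31e-97) and Gpr183 1.27-fold (2.02e-10). S1pr2, with 16.1, 11.5, 13.3 and 11.2 normalized CPM, passed narrowly (1.44-fold, adjusted p = 0.0315). Its call was lost without library 1 (0.450), without library 2 (0.0523), with no filter on low counts (0.0543) and in protein-coding transcripts alone (0.0645). In the M4 whole-number counts it ranged 2.44-fold instead, with an adjusted p of 6.04e-06.

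The genes did not follow 1 order of libraries. S1pr1, S1pr4 and Selplg were each higher in libraries 1 and 2 than in libraries 3 and 4, by TPM and by normalized CPM. Cd69 ran the other way by TPM, with both highest values in libraries 3 and 4, and so did Rgs1, which encodes a brake on inhibitory G protein signalling, at 470, 538, 587 and 595 TPM. By normalized CPM Cd69 was also lowest in library 1, but library 3 was highest and library 2, at 321, stood above library 4, at 291. Counted by protein-coding transcripts alone, Cd69 was at 186 TPM in library 4 and at 138, 145 and 153 TPM in libraries 1 to 3. Klf2, a transcription factor known to drive S1pr1, was measured at 12.8, 12.3, 15.9 and 20.5 TPM, and Foxo1, which acts upstream of Klf2, at 23.5, 22.0, 25.7 and 27.2 TPM. Neither had the library order of S1pr1. With 4 technical libraries, no correlation was computed.

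Markers of some other cell types shared the highest and lowest library with some of these genes, but not the full order. The B cell markers summed to 197, 134, 93.2 and 161 TPM in libraries 1 to 4. The sum was highest in library 1 and lowest in library 3, as were S1pr1, S1pr4 and Selplg by TPM. By normalized CPM S1pr4 was highest in library 2, at 106 against 101 in library 1. In the B cell sum library 4 stood above library 2, unlike in S1pr1, S1pr4 and Selplg. Cd79b was the most abundant of the 7 markers at 57.6 to 89.3 TPM, with library 4 highest. None of the 7 was at 0 in any library. The monocyte, macrophage and granulocyte sum had the same lowest and highest libraries, again with library 4, at 18.5, above library 2, at 7.24. The erythroid, dendritic cell and CD8 T cell sums were lowest in library 2 and the natural killer cell sum in library 4. Library 1 was highest in each. The part of these cells in the levels of the 6 genes was not tested.

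**Figure D3:**
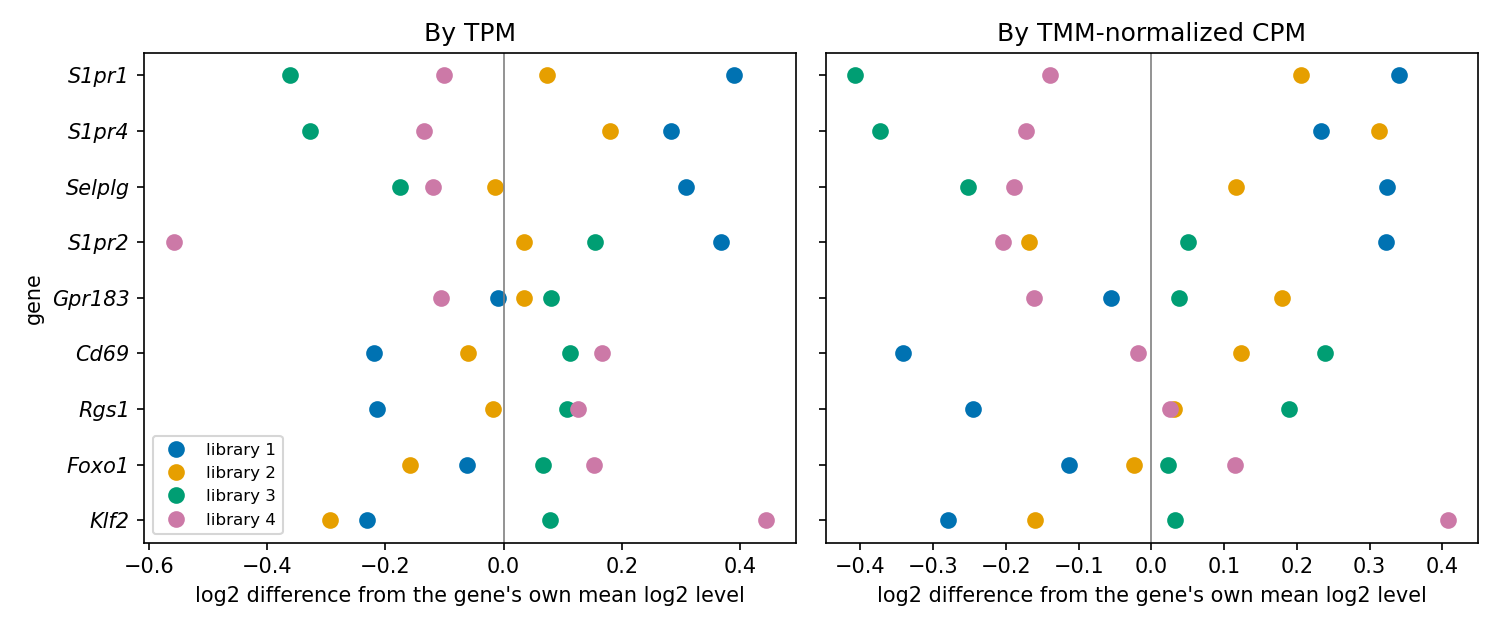
Log2 difference of each library from the gene's own mean log2 level, by TPM (left) and by TMM-normalized CPM (right), for the 6 genes and for Rgs1, Foxo1 and Klf2. Libraries 1 and 2 lie to the right of libraries 3 and 4 for S1pr1, S1pr4 and Selplg, while Cd69 and Rgs1 have library 1 farthest to the left.

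The genes most alike in level, by the root mean square difference of log2(TPM + 1) over the 4 libraries among 10789 protein-coding genes, were Gimap8 and Wbp2 for S1pr1, Slc25a45 for S1pr4, and Rnf227 and Icam4 for S1pr2. For Selplg they were Il2rb, the shared beta chain of the interleukin 2 and 15 receptors (383 ± 57.6 TPM), and Emg1. Pim1, a kinase gene induced by cytokines (186 ± 16.9 TPM), and Cox7a2 were nearest to Cd69, and Erh and Isca2 to Gpr183.

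The wider pathway was read from 8 lists of 54 genes, of which 5 are among the 6 genes above. In all, 41 of 54 (36 of the other 49) reached 1 TPM in all 4 libraries, against 45.2% of all nuclear protein-coding genes. Of the 44 listed genes with a mean of at least 10 counts, 35 (79.5%) differed between libraries, against 71.9% of the nuclear protein-coding genes tested and 68.4% of all genes tested. The counts of differing genes below are to be read against those shares, which make a difference between libraries the usual case.

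The regulators of the egress receptors were detected in full, 6 of 6, and 6 of 6 differed between libraries. Coro1a, an actin regulator needed for T cell exit, led at 1920 ± 206 TPM (SD, n = 4). Dnm2 and Grk2, a dynamin and a receptor kinase that act in receptor internalization, stood at 69.8 ± 16.2 and 59.3 ± 6.83 TPM. Klf2, at 15.4 ± 3.76 TPM, was the lowest of this list, below its known target S1pr1.

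Signalling genes downstream of the receptors were also detected in full, 10 of 10, and 10 of 10 differed between libraries. Rac2, a small GTPase of blood cells, was the highest at 2293 ± 107 TPM. Gnai2 and Gnai3, which encode the inhibitory G protein chains used by S1PR1 and EBI2, stood at 98.1 ± 14.7 and 71.1 ± 9.02 TPM. For the arm that S1PR2 uses, Gna13 stood at 48.8 ± 9.31 TPM, Arhgef1, its exchange factor, at 129 ± 17.5 TPM and Gna12 at 3.57 ± 0.92 TPM. The transcripts of that arm were thus well above the 3.60 TPM of S1pr2 itself, apart from Gna12.

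Of the S1P enzymes and transporters 5 of 10 were detected, near the 45.2% of all nuclear protein-coding genes, and 3 of 7 tested differed between libraries. Sgpl1, the lyase that degrades S1P irreversibly, was the highest at 20.6 ± 3.43 TPM. Sphk2 made up nearly all S1P kinase transcript, at 18.7, 14.0, 9.15 and 12.8 TPM, with library 1 highest and library 3 lowest, whereas Sphk1 had 1 expected count in 1 library. Spns2, the exporter known from endothelium, was at 0 in libraries 1 and 2 and at 0.06 and 0.17 TPM in libraries 3 and 4.

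Selp and Sele, which encode the selectins of platelets and endothelium, averaged 1.59 ± 0.58 and 0.07 ± 0.02 TPM (SD, n = 4). Selp differed between libraries (adjusted p = 0.00795, same likelihood ratio test). Of the 5 scaffolds that carry selectin-binding sugars, 4 were detected and all 4 tested differed. Selplg was the highest of them, above Spn (92.5 ± 15.2 TPM), Cd44 (77.4 ± 8.62) and Glg1 (21.2 ± 3.69), and Podxl was at 0.05 to 0.18 TPM.

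Selectin binding also needs enzymes that decorate the scaffold, and 11 of 12 were detected, of which 6 of 11 tested differed between libraries. The exception was Fut4, with 3 expected counts in library 1 and 0 in the others. Fut7, the fucosyltransferase that completes the selectin-binding sugar on T cells, was at 5.56, 5.00, 5.47 and 5.42 TPM, and no difference between libraries was detected at its depth (adjusted p = 0.264). Tpst2, which sulfates tyrosines, ran from 48.6 to 64.9 TPM, and Gcnt1, the core 2 branching enzyme, ran from 2.14 TPM in library 2 to 7.31 TPM in library 1. The enzymes that make or clear the ligand of EBI2 were mostly undetected. No library held an expected count of Ch25h, and a floor of 3 counts a library puts its upper limit at 0.321 to 0.451 CPM. Cyp7b1 had 1 expected count, and Hsd3b7 was at 4.75, 1.02, 4.17 and 4.48 TPM. Of these 3, 1 was detected, and the 1 tested differed between libraries.

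**Figure D4:**
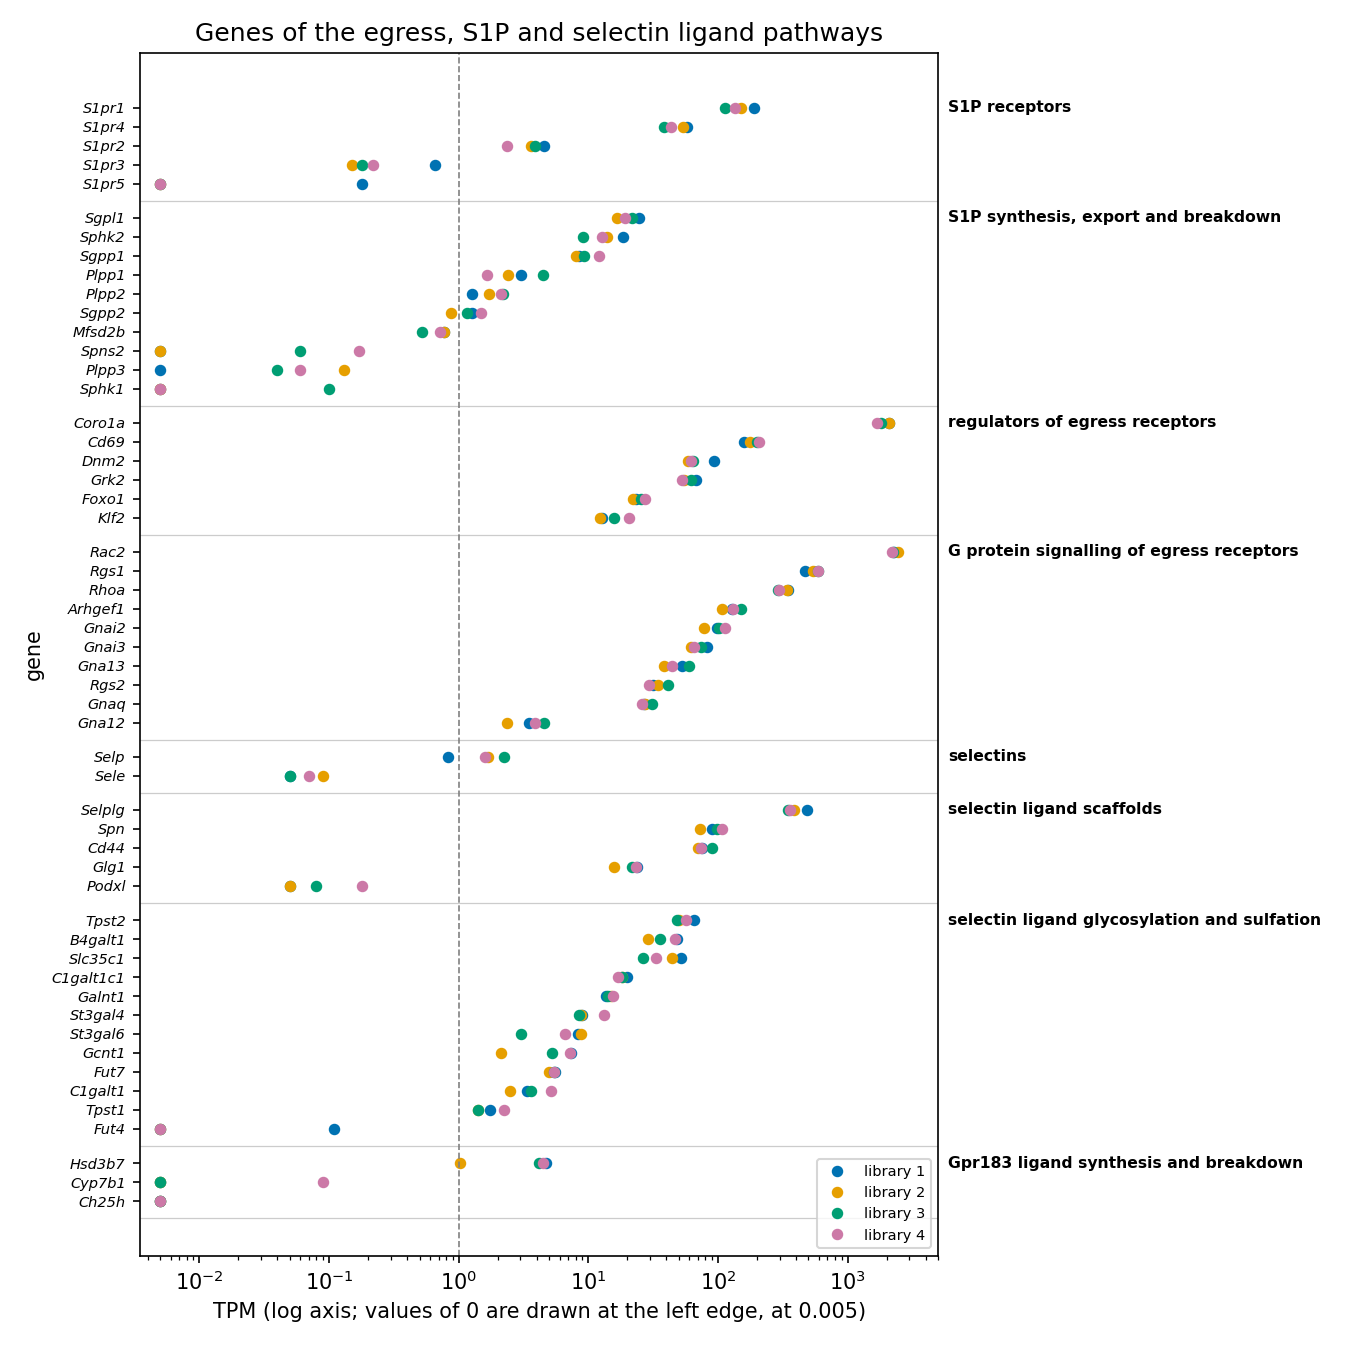
TPM (log axis) of listed genes in the 4 libraries, grouped by list, with the dashed line at 1 TPM and values of 0 drawn at the left edge. All regulators and signalling genes lie to the right of the line, whereas Ch25h has all 4 points at the left edge.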

How the data were processed

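PolyA RNA was sequenced from 4 technical libraries (fragments of 100 to 300 bases) of 1 biological replicate. Per the file headers, the authors deposited, for each library, expected counts and TPM per gene and per transcript, a second transcript table with estimated counts and TPM, and a gene table whose identifiers match GENCODE M4. Whole-number counts of that last table were also deposited by the authors. The build is mm10, per the labels; for aligner, quantifier and strand setting, the sources used here give nothing. Rows outside the annotation held 0.133 to 0.504% of expected counts and were left out.

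Gene symbols and biotypes came from GENCODE M21. The 6 genes and all lists were chosen with earlier results of these data known. All 6 genes are named, as are listed genes and, for each of the 6, up to 2 genes nearest in level; a few items of these lists are counted but not reported here. TPM is given as deposited, on a log2 scale with a pseudocount of 0.1. Expected counts were rounded to whole numbers and tested with a Poisson likelihood ratio in R 4.3.3 with TMM sizes from edgeR 4.0.16, over genes averaging 10 counts or more, and p-values were adjusted by Benjamini-Hochberg (0.05). This test was used because 1 group leaves no contrast for a quasi-likelihood test. DESeq2 1.42.0 gave size factors for an alternative. Other statistics used Python 3.11.15 with scipy 1.17.1. Both tests across genes were tested on simulated data. Depth was 6648385 to 9341328 expected counts, and 3 counts correspond to 0.321 to 0.451 CPM. Alternatives were other quantifications, scalings, filters and pseudocounts, and leaving out each library. The test of retained-intron share, the protein-coding transcript values and the rescaled second table were added after seeing the data.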

Additional observations from a re-analysis of the deposited data

Results flagged for a closer look

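Among 65 gene and share values checked, 7 had 1 library in the main tables whose gap to the nearest other exceeded Dixon's 95% limit. That limit flags about 1 in 20 by chance for continuous, normally distributed values only. For S1pr5, Sphk1, Fut4 and Cyp7b1, at 0 in all libraries but 1, the gap equals the range and the flag was certain. The count of 7 can thus not be read against 1 in 20. None was a level of the 6 genes. S1pr3 stood at 0.66 TPM in library 1, from 20 expected counts, against 0.15 to 0.22 in the others. S1pr5 and Fut4 were seen in library 1 alone, at 0.18 and 0.11 TPM, each from 3 expected counts. Sphk1 was at 0.1 TPM in library 3 alone and Cyp7b1 at 0.09 TPM in library 4 alone, each from 1 expected count. In the second transcript table Sphk1 was above 0 in all 4 libraries (0.0897 to 0.182 TPM), S1pr5 in 3 and Fut4 in 2 of them. St3gal4, a sialyltransferase gene, stood at 13.26 TPM in library 4 against 8.49 to 8.96 in the others. Its expected counts were 122, 107, 117 and 108 (adjusted p = 0.203 for a difference between libraries, edgeR TMM sizes), and the second transcript table gave 19.3, 29.9, 26.0 and 34.0 TPM. Hsd3b7, which encodes an enzyme that clears the EBI2 ligand, was low in library 2, at 1.02 TPM against 4.17 to 4.75. Without the library that stood apart, the means were 8.75 TPM for St3gal4 and 4.47 TPM for Hsd3b7.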

How the results depend on the processing

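Absolute levels moved with the table and the denominator. In the second transcript table the means were 70.7 TPM for S1pr1, 1.95 for S1pr2, 24.5 for S1pr4, 181 for Selplg, 92.7 for Cd69 and 54.3 for Gpr183. Nuclear protein-coding genes held 46.0 to 49.96% of that table's total against 78.0 to 81.6% in the main one. Over those genes alone that table gave 148, 4.10, 51.2, 378, 194 and 113 in the same gene order. Main TPM rescaled likewise gave 185 ± 36.8, 4.53 ± 1.07, 61.1 ± 10.5, 497 ± 67.3, 235 ± 32.5 and 129 ± 7.57. On this shared denominator the second table was lower for all 6 genes. Only S1pr2 and S1pr4 lay within 1 SD of the main value. M4 counts scaled by the main table's effective lengths gave S1pr1 112, S1pr2 2.00, Cd69 90.002 and Gpr183 121. Protein-coding transcripts alone gave S1pr2 2.49 and Cd69 155. The log2 ratio of Cd69 over S1pr1 turned to -0.29 with M4 counts and to -0.19 without length scaling, and S1pr1 over Gpr183 to -0.15 with M4 counts. Selplg over Cd69, at 1.08, was 2.12 with M4 counts and 0.70 without length scaling, and S1pr4 over S1pr2, at 3.73, was 4.75 and 2.72. By expected counts the leading transcript share was 95.4% for S1pr2-201, 84.1% for Selplg-201 and 63.1% for Cd69-201, and for Gpr183-201 it was 90.04% in the second transcript table. The causes of these shifts were not tested.

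The other 37 comparisons of ratios between neighbours kept their direction, the 10 retained-intron values kept their call, the 6 pathway counts stayed within 1.5 times, and 50 single-gene library tests kept the call. Another 4 lost it, all of S1pr2, the gene with the fewest counts, at adjusted p 0.0523 to 0.450, which left 5 of 6 genes called there. No paired analysis was possible because there is 1 group.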
